A study of Bos taurus with 8 samples.

Results

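The genes that build the tight junction were followed in eSLCs, stem-like cells grown from bovine embryos, and in cultured bovine somatic cells (SCs). The set holds 9 genes: the claudins CLDN1, CLDN3, CLDN4, CLDN6, CLDN7 and CLDN10, occludin (OCLN), the junctional adhesion molecule A gene F11R, and the scaffold gene TJP1, which encodes ZO-1. They were chosen by name, with earlier results of these data known, and found on the array through the RefSeq accession of each probe. The same holds for the marker lists and the wider list below, so their counts describe these genes and are not a test of them. A probe was matched for 8 of the 9, out of 12603 genes named on the array, and all 8 were bright enough to be tested. TJP1 had no matched probe and has no value here.

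Tight junctions seal the space between neighbouring epithelial cells close to their apical side. Claudins are membrane proteins with 4 transmembrane segments that line up in strands and decide which ions and molecules pass between the cells, while occludin and the junctional adhesion molecules lie in or beside these strands and ZO scaffold proteins tie them to the actin cytoskeleton. In the mammalian blastocyst the trophectoderm, the outer epithelium that gives rise to the placenta, forms tight junctions before the cavity fills with fluid, whereas fibroblasts in culture are not joined by tight junctions.

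All cells came from HanWoo, the Korean native cattle. Each of 6 eSLC lines and each of 2 SC samples was hybridized with 1 dye to an Agilent bovine array of its own. IVP-eSLCs, from blastocysts produced by fertilization in vitro, were line I2 at passage 35 and line I9 at passage 30. NT-eSLCs, from blastocysts made by somatic cell nuclear transfer, were line N2 at passage 36 and line N7 at passage 30. PA-eSLCs, from parthenogenetic blastocysts, which carry no paternal genome, were line P1 at passage 31 and line P4 at passage 36. All eSLCs were grown on murine STO feeder cells in 3i medium, which has no serum and holds inhibitors of MEK (PD184352), of FGF receptors (SU5402) and of GSK3 (CHIR99021). SCs, at passages 5 and 10, grew in DMEM with fetal bovine serum, so that the medium, the feeder layer and the passage number differ between eSLCs and SCs together with the cell type and cannot be told apart. Nothing in the labels says that SC P5 and SC P10 were separate cultures, and the p-values below measure only the spread between these 8 arrays, 2 per condition, a number that limits the precision of every value.

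Signals are background-subtracted intensities scaled so that the 75th percentile of each array is 1000, a level 75.3 to 136 times that of the dimmest spot called well above background. Signals under a common floor of 13.3 were raised to it, and a fold against a condition with both arrays at the floor is therefore given as "at least". Between 71.2% and 76.7% of spots were well above background and none was saturated. The arrays shared 2 slides, the first with I2, I9, N7 and SC P5 and the second with the remaining 4. The epithelial markers CDH1, EPCAM, KRT8, KRT18 and KRT19 were all higher in eSLCs, with summed signals of 386733 to 1009290 against 5433 to 5592 in SCs, where CDH1 was not well above background. All 6 trophectoderm markers measured were higher in eSLCs, and CDX2, ELF5 and PAG2 were not well above background on either SC array. Of the pluripotency markers LIN28A and SALL4 were higher, SOX2 was lower, and POU5F1 and NANOG did not pass the test. Of 8 fibroblast markers 7 were lower in eSLCs, with summed signals of 5374 to 10559 against 503588 to 604078. Of 4 keratinocyte markers DSG3 was higher in eSLCs, and KRT5, KRT14 and TP63 did not pass the test. KRT14 read 5372 in SC P5 and 2679 in SC P10, against 1288 to 2983 in eSLCs. KRT5 read 963 in SC P5 and 349 in SC P10, against 32.7 to 499 in eSLCs. Most tight junction genes below moved with all epithelial and trophectoderm markers measured, and against 7 of the 8 fibroblast markers. The part of cell type in each difference was not tested. In such bulk RNA, fewer cells of a type and less RNA per cell cannot be told apart.

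Of the 8 genes measured, 7 were higher in eSLCs than in SCs, 0 were lower, and CLDN10 did not pass the test. limma was fitted over 10958 genes with a mean per condition, and a gene was called at an adjusted p under 0.05 (two-sided, Benjamini-Hochberg over all genes) and a difference of at least 2-fold. By this rule 19.7% of all genes tested were called higher in eSLCs and 15.7% lower. CLDN3, CLDN6, OCLN and CLDN10 entered the test through eSLC arrays only, since they were not well above background on both SC arrays. With SC signals at or next to the floor, these genes could not have been called lower in any comparison with SCs. The count of genes that fell was thus partly fixed in advance. The median log2 difference of the 8 genes was 6.23, beside 0.23 over all genes tested. For 7 of the 8 genes every eSLC array lay above both SC arrays, while the arrays did not overlap for 57.6% of all genes.

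**Figure D1:**
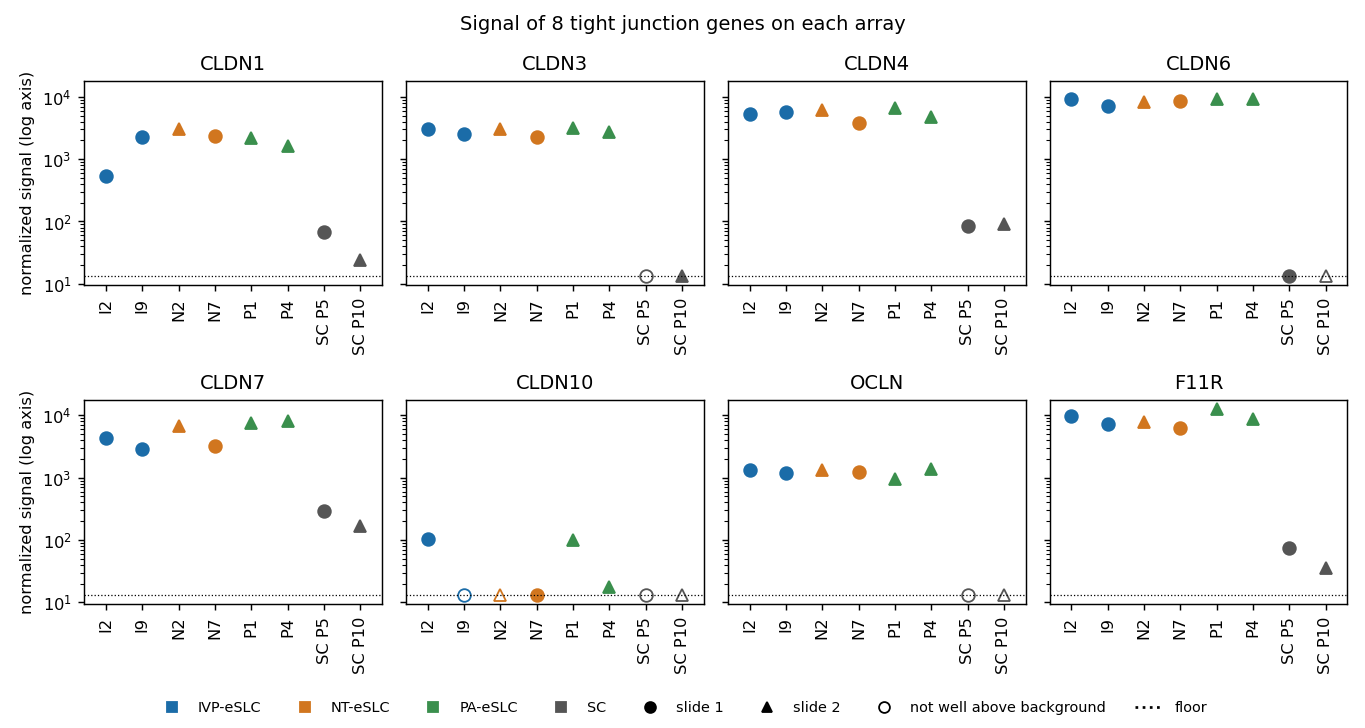
Normalized signal (log axis, 75th percentile of each array at 1000) of the 8 measured tight junction genes on each of the 8 arrays, colored by condition, with circles for slide 1, triangles for slide 2, open symbols for signals not well above background and a dotted line at the floor of 13.3. All genes but CLDN10 lie higher in the 6 eSLC lines than in the SC arrays, CLDN1 is lowest in I2 among the lines, and CLDN10 rises clearly from the floor only in I2 and P1.

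CLDN6, a claudin of embryonic epithelia, showed the largest difference of the set. Its signal was 9284 in I2, 7277 in I9, 8288 in N2, 8538 in N7, 9318 in P1 and 9356 in P4, and lay at the floor on both SC arrays, where the probe was well above background in SC P5 only. The 6 lines were within 1.29-fold of each other, the narrowest range of the 8 genes. eSLCs exceeded SCs by at least 651-fold (log2 difference 9.35 ± 0.156 SE, adjusted p = 2.85e-06 by limma). The floor sets the SC values here, and with them the size and the SE.

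CLDN3 and CLDN4 are neighbors on the same chromosome in the current cattle assembly and encode closely related claudins that tighten the epithelial barrier and bind the Clostridium perfringens enterotoxin. The CLDN3 signal was 3087 in I2, 2575 in I9, 3059 in N2, 2299 in N7, 3210 in P1 and 2685 in P4, against the floor in SC P5, where it was not well above background, and 13.5 in SC P10. With SC P5 raised to the floor, CLDN3 was at least 209-fold higher in eSLCs (log2 difference 7.71 ± 0.185 SE, adjusted p = 5.22e-06). The CLDN4 signal was 5409 in I2, 5752 in I9, 6238 in N2, 3809 in N7, 6668 in P1 and 4727 in P4, whereas SC P5 gave 85.1 and SC P10 92.1. CLDN4 was well above background on both SC arrays. Its log2 difference was 5.92 ± 0.246 SE (adjusted p = 2.27e-05). N7 had the lowest and P1 the highest signal among the lines for both genes.

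CLDN7, a claudin of many epithelia that is also found along the lateral membrane, gave 4315 in I2, 2867 in I9, 6683 in N2, 3256 in N7, 7508 in P1 and 8192 in P4, whereas SC P5 gave 295 and SC P10 165. It had the smallest difference of the 7 called genes (log2 difference 4.52 ± 0.370 SE, adjusted p = 0.000294). Among the lines the signal followed the slide, at 2867 to 4315 for the 3 lines of slide 1 and 6683 to 8192 for the 3 lines of slide 2 without overlap, which held for 1 of the 8 genes and for 12% of all genes tested. The SC arrays went the other way, with SC P5 of slide 1 above SC P10 of slide 2. Within slide 1 the log2 difference of CLDN7 between eSLCs and SCs was 3.54, and within slide 2 it was 5.49. With the slide as a block it was again 4.52 (adjusted p = 0.00133 by limma). The layout of the arrays over the slides fixes this estimate at the unblocked value, so it is no check of a slide effect.

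CLDN1, which is needed for the barrier of the skin and is present in many epithelia, gave 535 in I2, 2281 in I9, 3047 in N2, 2331 in N7, 2178 in P1 and 1658 in P4, whereas SC P5 gave 68.0 and SC P10 24.3. The signal in I2 stood below the other lines, which were within a range of 1658 to 3047, and the SC arrays differed by 1.48 on the log2 scale, the widest gap of the 8 genes between them. CLDN1 was nevertheless higher in eSLCs (log2 difference 5.45 ± 0.634 SE, adjusted p = 0.00116), and all lines lay above both SC arrays. Within slide 1, which holds I2, the log2 difference was 4.38, and within slide 2 it was 6.51.

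CLDN10, known from ion-conducting epithelia such as the kidney tubule and sweat gland, was the exception. The signal was 104 in I2, 99.3 in P1 and 17.6 in P4. It was at the floor in I9, N2, N7 and on both SC arrays, and of these 5 it was well above background in N7 only. The log2 difference between eSLCs and SCs was 1.05 ± 0.926 SE (95% interval from -1.22 to 3.31, adjusted p = 0.388), and the arrays of eSLCs and SCs overlapped. The lines with signal came from IVP and PA embryos and from both slides.

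OCLN encodes occludin, a membrane protein of the strands that regulates rather than forms the seal. Its signal was 1347 in I2, 1199 in I9, 1325 in N2, 1225 in N7, 963 in P1 and 1404 in P4, and no OCLN probe was well above background on either SC array. eSLCs therefore exceeded SCs by at least 93.0-fold (log2 difference 6.54 ± 0.190 SE, adjusted p = 7.45e-06). F11R encodes an adhesion molecule of the immunoglobulin superfamily that helps to place the polarity complex at forming junctions. The F11R signal was 9660 in I2, 7299 in I9, 7822 in N2, 6326 in N7, 12766 in P1 and 8857 in P4, whereas SC P5 gave 74.8 and SC P10 35.3. Its log2 difference was 7.38 ± 0.336 SE (adjusted p = 3.16e-05). Both genes were clear of the SC arrays in every line.

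Within slide 1 and within slide 2, each holding eSLC lines and 1 SC array, all 7 called genes were higher in eSLCs, by 3.54 to 9.29 on the log2 scale within slide 1 and by 5.49 to 9.40 within slide 2. Every line lay above both SC arrays for these genes, so the direction within a slide was fixed in advance. Only the sizes add to the values above. For F11R the values were 6.67 and 8.09.

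Of the 8 genes, 6 had several probes, of which the brightest on average was used. For CLDN1 the second probe repeated the pattern of the first, with 221 in I2 and 693 to 1274 in the other lines, and a log2 difference of 5.31. The second probes of CLDN3 and CLDN4 gave 6.95 and 7.04, beside 7.71 and 5.92 for the probes used. CLDN10 was again seen mainly in I2 (96.9) and P1 (80.6) with its second probe, which was well above background in SC P5 although at the floor there. OCLN differences were 6.54, 5.64 and 1.99 on the log2 scale for its 3 probes, the last with signals of only 38.7 to 76.7 in eSLCs and the floor in SCs. The 3 probes of F11R gave 7.38, 6.95 and 0.95, and the last of these read 421 to 642 in eSLCs and 241 to 283 in SCs. These probes agree in direction but not in size. CLDN6 and CLDN7 had 1 probe each.

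**Figure D2:**
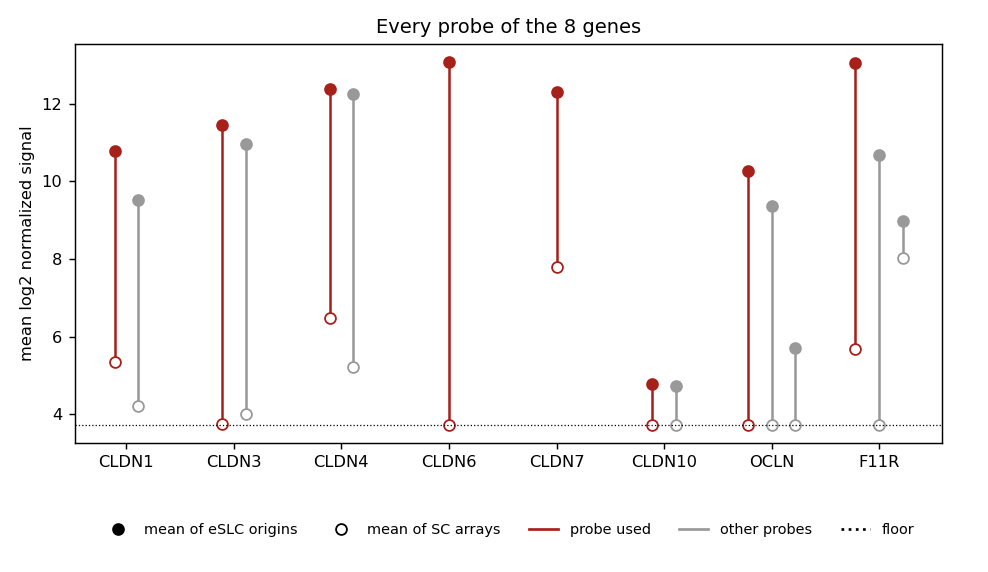
Mean log2 normalized signal of every probe of the 8 genes in eSLCs (filled circles, mean of the 3 origins) and SCs (open circles), joined by a line whose length is the log2 difference, red for the probe used and gray for the others, with the floor dotted. Every probe is higher in eSLCs, but the dimmest probes of OCLN and F11R show differences of 1.99 and 0.95 beside 6.54 and 7.38 for the probes used.

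Each origin was also compared with the SCs, which are the same 2 arrays in each comparison. In IVP-eSLCs 7 of 8 genes rose and 0 fell (beside 17.7% of all genes tested that rose and 14.6% that fell), in NT-eSLCs 7 and 0 (15.8% and 13.9%), and in PA-eSLCs 7 and 0 (20.3% and 14.9%). The median log2 difference of the 8 genes was 6.28 in IVP-eSLCs, 6.31 in NT-eSLCs and 6.22 in PA-eSLCs, beside 0.20, 0.17 and 0.27 over all genes. CLDN6 differed from SCs by at least 619-fold, 633-fold and 703-fold in these origins, and OCLN by at least 95.7-fold, 95.9-fold and 87.6-fold. CLDN1 differed by 4.76 (adjusted p = 0.00566), 6.03 (adjusted p = 0.00248) and 5.55 (adjusted p = 0.00304) on the log2 scale. The call of CLDN1 in IVP-eSLCs was lost without SC P10 (log2 difference 4.02, adjusted p = 0.0544).

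The question of whether the embryo's origin matters for these genes was addressed by setting NT-eSLCs and PA-eSLCs against IVP-eSLCs. limma called 0 of the 8 genes in both comparisons, and 0% of all genes tested. At an unadjusted p under 0.05 limma had 0 of the 8 genes for NT-eSLCs (306 of all genes) and 1 of the 8 for PA-eSLCs (568 of all genes), and the t-test named in the study's methods, after Benjamini-Hochberg adjustment, called 0 of the 8 in both. Arrays did not overlap between NT- and IVP-eSLCs for 1 of the 8 genes, CLDN1 (23.2% of all genes), and between PA- and IVP-eSLCs for 2 of the 8, CLDN6 and CLDN7 (35.1%). A call missed does not show equal levels, and the intervals say how far the origins could differ. For CLDN6 the NT minus IVP log2 difference was 0.033, with a 95% interval from -0.44 to 0.50. For OCLN it was 0.0032 with an interval from -0.57 to 0.57. For CLDN3 it was -0.088, from -0.65 to 0.47, and for CLDN4 -0.19, from -0.93 to 0.54. CLDN6, CLDN3 and OCLN, with the least spread among lines, thus had intervals within 2-fold between NT- and IVP-eSLCs, and so did CLDN4. The intervals of CLDN1 (1.27, from -0.63 to 3.17), CLDN7 (0.41, from -0.70 to 1.52), F11R (-0.26, from -1.26 to 0.75) and CLDN10 (-1.48, from -4.26 to 1.30) reached beyond it. Here and for PA-eSLCs the intervals use a spread pooled over all conditions, SCs included. For CLDN6, CLDN3, OCLN and CLDN10 the SC arrays, at or next to the floor, added almost no spread. The intervals of these genes may therefore be too narrow.

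Between PA- and IVP-eSLCs the intervals also lay within 2-fold for CLDN3 (0.058, from -0.50 to 0.62), CLDN4 (0.0094, from -0.73 to 0.75), CLDN6 (0.18, from -0.28 to 0.65) and OCLN (-0.13, from -0.70 to 0.44). CLDN7 was the 1 gene past that unadjusted threshold (log2 difference 1.16, 95% interval from 0.047 to 2.27, adjusted p = 0.852 by limma). The IVP lines were both on the first slide and the PA lines on the second, so that no slide holds both origins. With the slide as a block the CLDN7 difference was 1.05 (adjusted p = 0.934 by limma). The slide term of that fit rests on the NT and SC pairs alone, which went opposite ways for CLDN7. N2 of slide 2 was 1.04 above N7 of slide 1 on the log2 scale. SC P10 of slide 2 was 0.83 below SC P5 of slide 1. The blocked value is therefore no check of a slide effect. For F11R the difference was 0.34, from -0.67 to 1.35, for CLDN1 it was 0.78, from -1.12 to 2.69, and for CLDN10 it was 0.17, from -2.61 to 2.95.

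**Figure D3:**
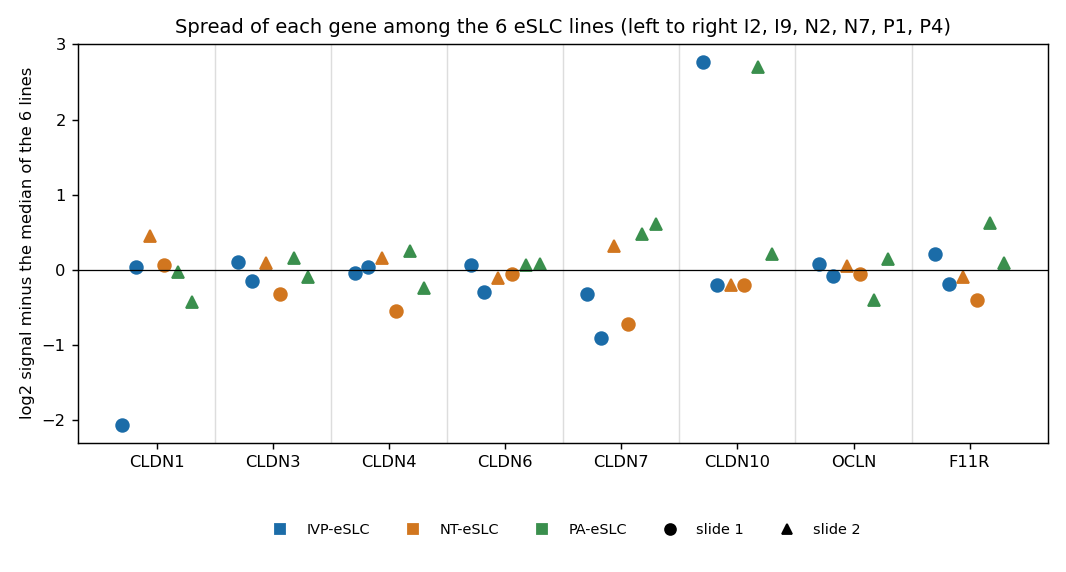
Log2 signal of each gene in each of the 6 eSLC lines minus the median of the 6 lines, left to right I2, I9, N2, N7, P1 and P4, colored by origin, with circles for slide 1 and triangles for slide 2. CLDN6, CLDN3 and OCLN vary little, CLDN1 is low in I2, CLDN10 is high in I2 and P1, and the slides separate the lines for CLDN7 alone.

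The spread among the 6 lines differed between genes. The SD of log2 signal was 0.142 for CLDN6, 0.187 for CLDN3, 0.195 for OCLN, 0.294 for CLDN4, 0.354 for F11R, 0.648 for CLDN7, 0.892 for CLDN1 and 1.47 for CLDN10. The highest and lowest line were 5.69-fold apart for CLDN1 and 2.86-fold for CLDN7. Lines of the same origin were not always alike. I2 and I9 differed by 2.09 on the log2 scale for CLDN1 and by 2.97 for CLDN10, and N2 and N7 by 1.04 for CLDN7. The P1 and P4 pair differed by at most 0.54 for all genes but CLDN10, where the gap was 2.49. Between SC P5 and SC P10, the levels of CLDN1, F11R and CLDN7 differed by 1.48, 1.08 and 0.83, all lower in SC P10, and the level of CLDN4 by 0.11. Of the epithelial markers EPCAM, KRT8 and KRT18 were also lower in SC P10, KRT19 was higher, and CDH1 lay at the floor on both. The keratinocyte markers KRT5, KRT14 and DSG3 were lower in SC P10 too, and TP63 lay at the floor on both. Whether these changes are linked was not tested. SC P5 and SC P10 were on different slides, so that passage and slide cannot be told apart here.

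Other genes of the tight junction, with genes of polarity, signaling and transcription, were taken from a list of 53. Of these 39 had a probe and 37 were tested. TFAP2C is counted both here and among the trophectoderm markers. In eSLCs 20 were higher than in SCs and 5 lower, and 12 did not pass the test. The median log2 difference was 2.28. Of all genes tested 19.7% rose and 15.7% fell. MARVELD3, ESAM, PATJ, PRKCZ, OVOL1, OVOL2, LSR and CLDN8 entered the test through eSLC arrays only. With SC signals at or next to the floor, these genes could not have been called lower. JAM2 entered through SC arrays only. The balance of rises and falls in this list was thus partly fixed in advance. By role, 5 of 7 other membrane proteins, 5 of 9 plaque proteins, 3 of 5 polarity proteins and 4 of 8 genes of signaling and transcription were higher, and 1 of each group was lower.

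Of the other membrane proteins, the angulin LSR, which recruits tricellulin to the corners where 3 cells meet, had signals of 4384 to 7613 in eSLCs against 14.9 in SC P5 and the floor in SC P10 (log2 difference 8.55, adjusted p = 1.01e-05). The coxsackievirus and adenovirus receptor CXADR read 2372 to 8707 against 40.7 and 28.8 (6.86, adjusted p = 0.000226). JAM2, a relative of F11R common in endothelium, moved the other way, with 2858 in SC P5 and 2113 in SC P10. JAM2 lay at the floor in I2, I9, N2, P1 and P4 but at 574 in N7 (-6.63, adjusted p = 0.00835). Its call was lost without SC P5 (adjusted p = 0.0963) or without SC P10 (adjusted p = 0.0802).

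In the cytoplasmic plaque, cingulin (CGN), which links ZO proteins to myosin and RhoA regulation, read 5804 to 7663 against 112 and 155 (5.69, adjusted p = 9.47e-06). The multi-PDZ scaffold gene MPDZ was lower, with 221 to 533 against 1820 and 2129 (-2.55, adjusted p = 0.00339), a call lost without SC P10 (adjusted p = 0.0514). Among polarity genes PARD6B read 8119 to 12508 against 52.3 and 27.9 (8.11, adjusted p = 1.54e-05), while its paralog PARD6A read 205 to 325 against 770 and 643 (-1.56, adjusted p = 0.00296). The atypical kinase gene PRKCZ read 827 to 1698 against the floor on both SC arrays, where it was not well above background (at least 82.4-fold, adjusted p = 3.52e-05). The 2 PARD6 genes thus moved in opposite directions.

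Of the signaling and transcription genes, 3 transcription factors were among the 8 largest rises. GRHL1, of the grainyhead family that drives junction genes in epithelia, read 8393 to 15923 against 20.1 and 34.3 (8.75, adjusted p = 7.72e-06). OVOL2 and OVOL1, zinc-finger repressors of mesenchymal genes, read 3754 to 6201 and 1317 to 4102, and both lay at the floor on both SC arrays (OVOL2 at least 364-fold, adjusted p = 6.08e-06, and OVOL1 at least 197-fold, adjusted p = 2.19e-05). ARHGEF2, a RhoA activator that cingulin holds at junctions, was lower, with 460 to 1993 against 8052 and 9769 (-2.94, adjusted p = 0.00754), a call that did not hold without SC P5 (adjusted p = 0.0745) or without SC P10 (adjusted p = 0.0861).

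**Figure D4:**
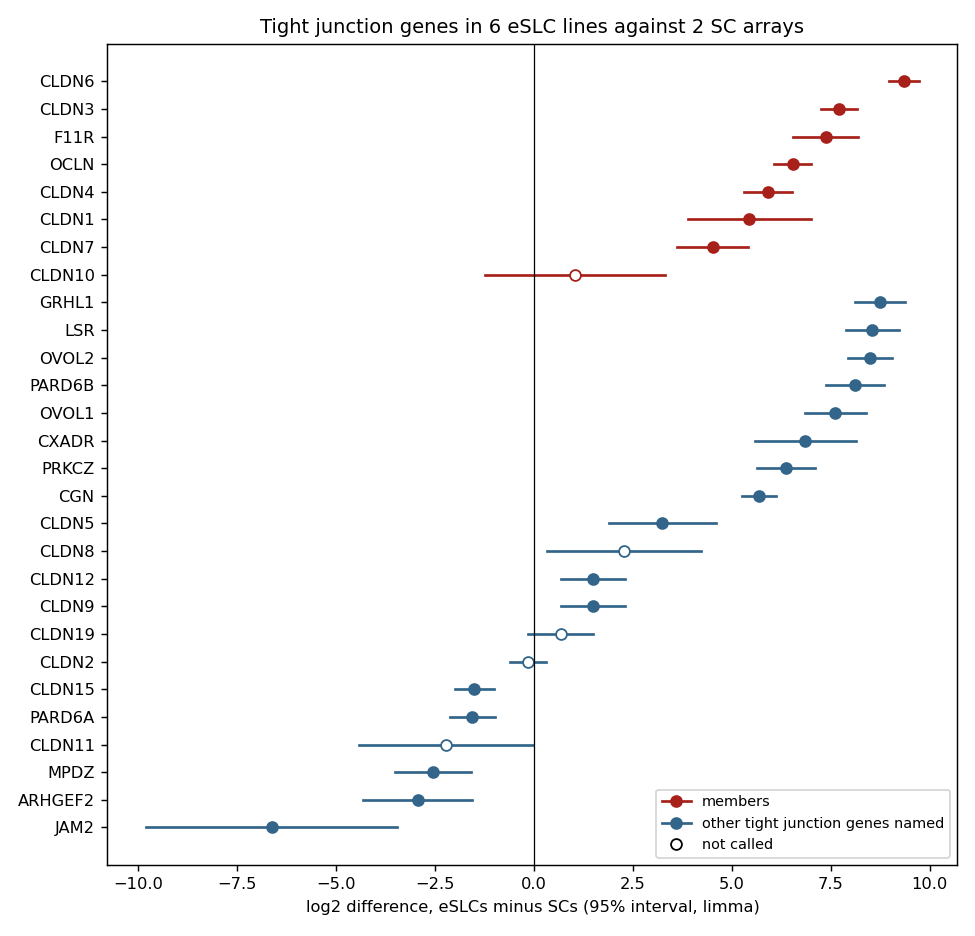
Log2 difference between eSLCs (6 lines) and SCs (2 arrays) with its 95% interval from limma, for the 8 measured members (red) and the other tight junction genes named in the text (blue), open symbols for genes not called. Of the members only CLDN10 has an interval that reaches 0, while the other claudins lie between -2.23 and 3.24.

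Of 15 claudins listed outside the set, 10 had a probe, CLDN16 and CLDN18 were not well above background on any array, and of the 8 tested 3 were higher and 1 lower, where all genes gave 19.7% and 15.7%. CLDN5, the main claudin of endothelium, read 355 in I2, 99.3 in I9, 84.0 in N2, 41.2 in N7, 309 in P1 and 176 in P4 against 15.8 and 13.3 (3.24, adjusted p = 0.00498). Of 4 endothelial markers, VWF was well above background on every array, with 18.3 to 234 in eSLCs and 61.8 and 75.9 in SCs, KDR was so in P1 and P4 among the lines, and CDH5 and TEK were so in none of them. VWF, KDR and TEK did not pass the test (adjusted p = 0.860, 0.691 and 0.211 by limma), and CDH5 was too dim to be tested. CLDN12, which lacks the motif that binds PDZ scaffolds in other claudins, read 3682 to 3969 in I9, N2 and N7 and 1542 to 1760 in I2, P1 and P4, against 850 and 922 (1.49, adjusted p = 0.0128). CLDN9, the neighbor of CLDN6 in the current assembly, read only 111 to 236 against 51.7 and 68.4 (1.49, adjusted p = 0.0132). CLDN15, a pore-forming claudin of the intestine, was lower, with 61.8 to 92.1 against 199 and 231 (-1.51, adjusted p = 0.00203), but with the mean of its 3 probes the difference was -0.94, under 2-fold, and the call was lost. The calls of CLDN5, CLDN9 and CLDN12 were lost without SC P5 (adjusted p 0.0603, 0.126 and 0.110) and without SC P10 (0.0665, 0.0691 and 0.0895), and those of CLDN9 and CLDN12 also with the processed values of the authors (0.123 and 0.238).

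CLDN8 and CLDN11 did not pass the test and varied widely among the lines. CLDN8, a claudin of the collecting duct, read 325 in N7, 171 in N2, 105 in I9 and 50.6 in P4 but 17.6 in I2 and 13.9 in P1, and was not well above background in SCs (2.28, adjusted p = 0.0578). CLDN11, which forms the junctions of myelin and of Sertoli cells, read 211 in P1 and 42.0 in I2 against 118 and 141 in SCs, and lay at or near the floor in the other lines (-2.23, adjusted p = 0.0876). CLDN8 was called without I2 (adjusted p = 0.0205), with normexp background correction (0.0286), with the processed values of the authors (0.0111) and with a lower floor of 3.32 (0.0117). CLDN11 was called without P1 (adjusted p = 0.0129) and with the processed values of the authors (0.0437). I2 and P1 were thus the highest lines for CLDN5, CLDN10 and CLDN11 and the lowest for CLDN8, while they came from different origins and slides. This pairing of lines was noticed after the values were seen and was not tested. CLDN19 (0.68, adjusted p = 0.144) and CLDN2 (-0.14, adjusted p = 0.549) were not called.

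Genes whose pattern over the 8 arrays was most like that of a member were found by Pearson's r of log2 signal among all genes tested. Because the arrays fall into eSLCs and SCs, which any gene with a large difference separates, r describes this split first and is given with no test. For CLDN6 the nearest genes were TMEM79 (r = 0.9996) and MAP7 (r = 0.9993), for CLDN3 MAP7 and TMEM125 (r = 0.9992), and for CLDN4 DENND2D and PLAC8A (both r = 0.9989). For CLDN7 they were LOC514170 (r = 0.9962) and LOC512805 (r = 0.9907), and for CLDN1 COA4 (r = 0.9875) and CITED1 (r = 0.9843). OCLN was most like SLC10A1 (r = 0.9998) and PDZK1 (r = 0.9994), and F11R most like BSPRY (r = 0.9981) and ITPR3 (r = 0.9977). CLDN10, which does not follow the split, was nearest to LOC407171 (r = 0.9977) and PPP1R1B (r = 0.9942).

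The table of processed values that the authors deposited holds a further difference in the SC arrays. The SC values of CLDN1, CLDN7 and F11R differed by 0.20%, 0.0014% and 0.030% between the SC columns of that table, where the scanner files gave gaps of 179%, 78.2% and 112%. For CLDN6 the gap in the table was 0.75%. Its scanner gap of 64.9% came from signals of 12.9 and 7.80, both under the floor, and shows no measured difference. For the other 4 genes the gap in the table was 7.02% for CLDN3, 82.1% for CLDN4, 121% for CLDN10 and 152% for OCLN, where the scanner files gave 43.2% and 7.57% for CLDN3 and CLDN4, and CLDN10 and OCLN were not well above background. The scanner gap of CLDN3 rests on SC P5, where the signal was under the floor and not well above background. Over all probes, 23.5% had SC values within 3% of each other in the table. The spread between SC arrays was therefore taken from the scanner files.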

How the data were processed

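Total RNA of 6 eSLC lines and 2 SC samples was hybridized to 1-color Agilent arrays and read by the authors with Feature Extraction 11.5.1.1, and the authors deposited linear signal intensity per spot, not normalized between arrays, and a table of processed intensity values normalized with GeneSpring GX. The background-subtracted intensity was used because the processed intensity was out of step with it in 6 of the 8 deposited files (rank correlation 0.161 to 0.216, against 0.973 in I2 and 0.971 in N2). Control spots and outlier spots (1 to 11 per array) were left out, spots of 1 probe were averaged, each array was divided by its 75th percentile (1192 to 4092 scanner units), and log2 was taken after the floor. Of 43653 probes, 26743 matched a gene of the RefSeq table (assembly ARS-UCD2.0) by accession, and the probe brightest over all arrays stood for its gene. The test was limma 3.58.1 (R 4.3.3), on genes that both arrays of some condition showed well above background, and figures were drawn with matplotlib 3.10.9. A test on simulated data, where 200 of 10958 genes changed 4-fold, recovered 68.5% of these between eSLCs and SCs, 48.5% between NT and IVP lines and 50.5% between PA and IVP lines, with 0 wrong signs. The simulated data held no slide effect, although PA and IVP lines share no slide, and their spread included SC pairs at the floor. The shares recovered therefore describe the simulated data only.

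The 9 genes, the wider list and the marker lists were chosen with earlier results of these data known. Named genes are the 9 members, every measured claudin, and of the wider list the 8 largest rises and 4 largest falls among genes called and well above background on every array of the brighter condition. For likeness, the nearest 2 non-members were taken. Alternatives covered the signal column, scaling, floor, filter, probes, samples, test, slide and leaving out each array. The planned normexp correction of the mean spot signal used the median spot signal, since the mean was not in the files used here. No probe sequence or genome of the array's build was used here.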

Additional observations from a re-analysis of the deposited data

Results flagged for a closer look

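CLDN1 in line I2 was set apart from the other eSLC lines by a Dixon test over the 6 lines. The gap from I2 (535) to the nearest line, P4 (1658), took a share of 0.650 of the whole log2 range, above the 95% critical value for 6 values. The test was run on each of the 8 genes, and chance sets apart about 1 in 20 such groups. The second CLDN1 probe also gave its lowest signal in I2 (221, against 693 to 1274 in the other lines). Without I2 the log2 difference between eSLCs and SCs was higher in IVP-eSLCs (5.81) than with it (4.76).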

How the results depend on the processing

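The count of 7 members called against SCs was 6 or 7 under every alternative run except these. With the processed signal, which is out of step in 6 of 8 files, the count of called members was 3 for eSLCs, 2 for IVP-, 3 for NT- and 2 for PA-eSLCs, and 4 genes of the wider list were called instead of 25. With genes well above background on all 8 arrays, which leaves 4 members to test, 4 were called in each comparison with SCs. After Benjamini-Hochberg adjustment the methods' t-test called 4 in IVP-eSLCs and 3 in NT-eSLCs. Leaving out 1 array at a time gave 7 to 7 for eSLCs, NT-eSLCs and PA-eSLCs, 6 to 7 for IVP-eSLCs, 0 to 0 between origins and 19 to 26 for the wider list. With the SC arrays as 1 sample the calls of CLDN5 (adjusted p = 0.0642), CLDN9 (0.0944), CLDN12 (0.101), JAM2 (0.0895) and ARHGEF2 (0.0809) were lost. No paired analysis was possible because the labels give every sample the same replicate number. Within each slide only the values of single genes were computed, and no test was run. The median log2 difference of all genes, 0.23, moved to 0.12 with quantile normalization, 0.056 with the authors' values and 0.44 with the processed signal.

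With the processed signal the sign turned for CLDN10 against SCs (-1.78 in eSLCs, -1.24 in IVP-, -0.36 in PA-eSLCs), CLDN4 in PA-eSLCs (-0.23), LSR (-1.59), PRKCZ (-1.57), CGN (-1.21), JAM2 (0.076), MPDZ (2.13), CLDN2 (0.40) and CLDN5 (-2.59), and between origins for OCLN (NT, -0.39), F11R (NT, 0.46), CLDN3 (PA, -4.88) and CLDN4 (PA, -1.38). The other turns of sign were in CLDN2 against SCs and in differences from IVP-eSLCs, none of which was called. For OCLN (NT) they were -0.037 with normexp, -0.025 with the authors' values, -0.0016 with quantile normalization, -0.22 with the mean of probes and -0.025 with the slide as a block. For CLDN4 (PA) they were -0.039, -0.22, -0.050, -0.067 and -0.40 in the same order. CLDN3 (PA) gave -0.33 with the authors' values, -0.12 with the mean of probes and -0.16 with the slide block, and F11R (NT) 0.091 with the authors' values. Leaving out single arrays gave -0.29 to 0.12 for CLDN3 (NT), -0.072 to 0.19 for CLDN3 (PA), -0.55 to 0.16 for CLDN4 (NT), -0.24 to 0.26 for CLDN4 (PA), -0.14 to 0.21 for CLDN6 (NT), -0.11 to 0.93 for CLDN7 (NT), -1.31 to 1.66 for CLDN10 (PA), -0.081 to 0.087 for OCLN (NT), -0.40 to 0.14 for OCLN (PA), -0.26 to 1.83 for CLDN1 (PA) and -0.36 to 0.071 for CLDN2 against SCs. Apart from the step between signal columns, the cause of these changes was not tested. Signals near the floor, as in SCs, set only a limit on the size of a fold.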
